A study of Mus musculus with 4 samples.

Results

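Cells are held in the bone marrow by factors that stromal cells secrete or display and by the receptors that blood cells carry for them. The report describes 8 related genes of the 32285 in the deposited tables: the factors Cxcl12, Kitl, Il7, Angpt1 and Vcam1 and the receptors Cxcr4, Itga4 and Lepr. In these data Lepr was found mostly in the stromal cells themselves, and Angpt1 mostly in blood cell classes. The 8 genes were chosen by symbol, with no measured value in the rule but with earlier results of these data known. All 8 were found.

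The series held bone marrow cells of 4 C57BL/KawRij mice with 5TMM disease, in which 5TGM1-luc myeloma cells, a single cell line, had been injected into a vein at 6 weeks of age. After 3 weeks, 2 mice received vehicle and 2 received purinostat mesylate (PM), a selective inhibitor of class I and IIb histone deacetylases, at 10 mg/kg for 24 h. All 4 mice carried the tumor, so no tumor-free marrow entered any comparison. Cells of each mouse formed 1 droplet library, in which a unique molecular identifier (UMI) tags each captured transcript and reads cover the 3' end. The mice are called vehicle 1, vehicle 2, PM 1 and PM 2.

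CXCL12 is the chemokine that draws cells bearing CXCR4 to the stroma, and reticular cells that make much of it, the CXCL12-abundant reticular (CAR) cells, surround the marrow sinusoids. The same stroma gives KIT ligand (Kitl) to stem and progenitor cells and interleukin 7 to early B cells, and displays VCAM1, to which the α4 integrin chain encoded by Itga4 binds. Leptin receptor (Lepr) marks adult CAR cells, and angiopoietin 1 (Angpt1) acts on the TIE2 receptor. Myeloma cells and normal B lineage cells use both the CXCL12 and the VCAM1 axis to stay in the marrow.

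CXCL12 and CXCR4 are the chemokine and receptor pair among the 8, and both genes were called in B cells, so the 250 bases before the start of each gene are shown, from RefSeq on GRCm38.p6, with GC boxes (GGGCGG on either strand) in capitals. The Cxcl12 window lies at chr6:117168285-117168534 on the plus strand and the Cxcr4 window at chr1:128592300-128592549 on the minus strand, both written 5′ to 3′. RefSeq entries were matched by symbol for 5 of the 8 genes.
Cxcl12: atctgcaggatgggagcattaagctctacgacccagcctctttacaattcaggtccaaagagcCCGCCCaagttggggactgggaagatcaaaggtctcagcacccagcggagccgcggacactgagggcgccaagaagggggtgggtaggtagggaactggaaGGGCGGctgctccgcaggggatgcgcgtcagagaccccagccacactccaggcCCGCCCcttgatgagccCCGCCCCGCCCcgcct
Cxcr4: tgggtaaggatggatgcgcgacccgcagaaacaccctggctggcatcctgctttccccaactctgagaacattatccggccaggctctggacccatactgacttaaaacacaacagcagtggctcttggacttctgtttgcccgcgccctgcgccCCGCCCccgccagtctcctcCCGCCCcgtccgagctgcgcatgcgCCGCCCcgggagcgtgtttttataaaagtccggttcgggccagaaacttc
The Cxcl12 window held 5 matches, the last pair of which overlap, and had 64.4% G and C. The Cxcr4 window held 3 matches and had 61.2% G and C. Of 32851 promoter windows of the same length, 32.7% held at least 1 match and 8.47% held 3 or more. The letters TATAAA, searched on both strands, matched 2 times near the start of Cxcr4 and 0 times in the Cxcl12 window, against 12.4% of all windows with a match. These Cxcr4 matches lie on opposite strands of overlapping bases, so they are a single site. On GRCm38 the gene Cxcl12 spans 117168535 to 117181367 of chromosome 6, plus strand, and Cxcr4 spans 128588199 to 128592293 of chromosome 1, minus strand. These matches describe the letters only.

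After removal of cells with under 300 genes or over 20% mitochondrial UMIs, 7826 to 13387 cells a mouse remained, 39743 in all, with median UMIs per cell of 4717 to 6067. Pairs of libraries shared 18 to 39 barcodes. Clusters were named from marker lists that held none of the 8 genes, so that each class name stands for cells like that type. Of 16 classes, 15 reached 10 cells in each of the 4 mice and were tested. The CAR class was small, with 26 cells in each vehicle mouse and 41 and 66 cells under PM, and after Cxcl12 and Igfbp5 its leading genes were Gas6, Mgp, Tnc and Ibsp. Neutrophil transcripts were high in it: S100a8 and S100a9 together took 117589 to 171657 UMIs of every 1000000 (CPM) in CAR cells, near the 114388 to 178041 CPM in macrophages, whose median was 857 UMIs per cell. One class of 938 cells, led by Gria3, matched no list with a leading marker and stays unnamed. The conventional dendritic class was also led by Cx3cr1 and Adgre4.

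Some of the genes shared their highest class, and others differed in it. The levels below are CPM over all UMIs of a class in a mouse, as a description with no test between classes. Cxcl12, Kitl, Lepr and Il7 were highest in CAR cells. By the mean of the 4 mice, Vcam1 was highest in macrophages, Angpt1 in megakaryocytes and platelets, Cxcr4 in B cells and Itga4 in NK cells. For Cxcr4 the order differed between groups. Eosinophils, basophils and their progenitors were below B cells in both vehicle mice and above them in both PM mice (365 and 517 against 317 and 373 CPM). By that mean the same class was highest for 8 of 8 genes when the genes themselves were allowed into the clustering and when called doublets were left out.

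**Figure D1:**
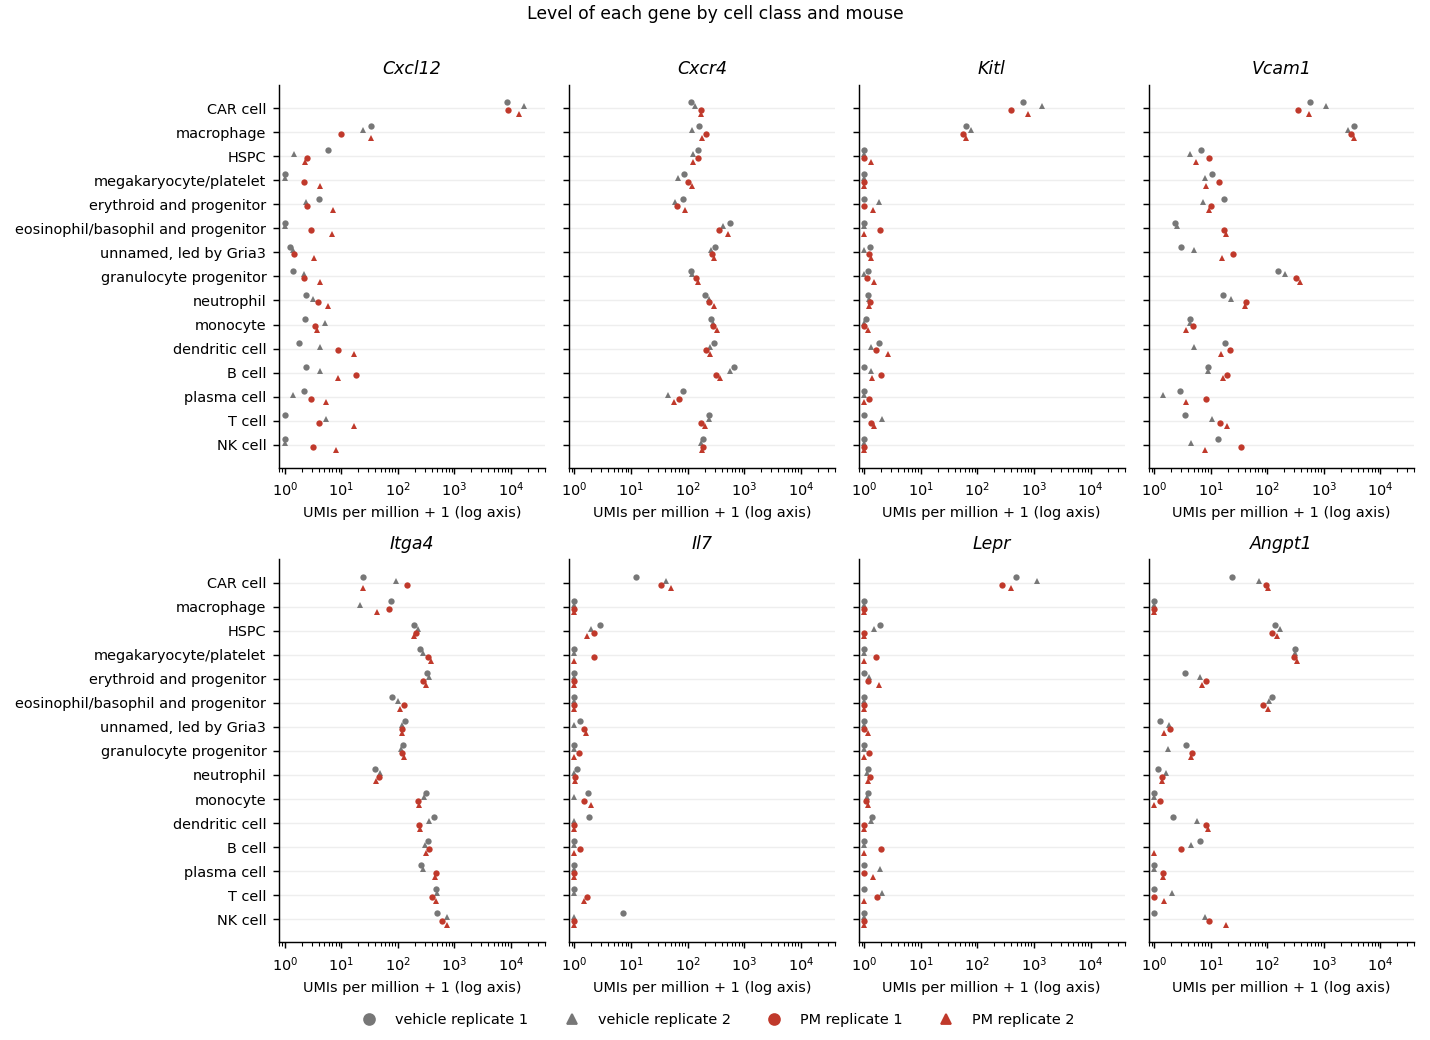
Level of each gene (CPM plus 1, log axis) in each cell class, with 1 point per mouse. Cxcl12, Kitl and Lepr stand far to the right in CAR cells, Vcam1 in macrophages and Angpt1 in megakaryocytes, while Cxcr4 and Itga4 are spread over most classes.

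Cxcl12 was the transcript of 1 rare class. CAR cells held 8559 CPM in vehicle 1, 17319 in vehicle 2, 9043 in PM 1 and 14178 in PM 2, and the groups overlapped. In all, 159 CAR cells held 83.9% to 91.6% of a mouse's Cxcl12 UMIs, 7182 of 8164. At least 1 Cxcl12 UMI was found in 94.3% of CAR cells (median 2386 UMIs per cell), against 1.86% of T cells (median 3532 UMIs), which should lack the gene. With cells thinned to 1000 UMIs the shares were 76.1% of 113 CAR cells and 0.696% of 1581 T cells. Shallower cells, 46 CAR cells and 34 T cells, could not be thinned and were left out. Thinned shares of other classes also leave out such cells. The next tested class, the macrophages, held 8.79 to 32.8 CPM, and no other of the 15 tested classes passed 20 CPM in any mouse, although the conventional dendritic cells, a finer class, reached 27.8 CPM in PM 2.

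**Figure D2:**
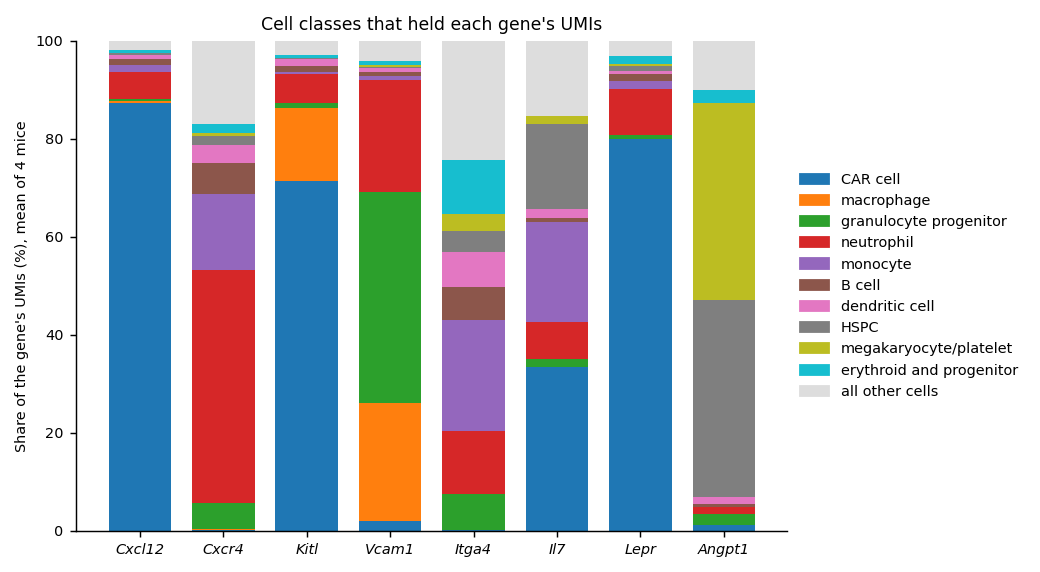
Share of each gene's UMIs (%, mean of 4 mice) that fell in each cell class. CAR cells hold nearly the whole Cxcl12 bar, while neutrophils hold the largest part of Cxcr4 and granulocyte progenitors of Vcam1.

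Within CAR cells Cxcl12 did not pass the test between PM and vehicle. The log2 fold change was -0.13 (SE 0.42, 95% interval -0.96 to 0.69, adjusted p = 0.99 by edgeR's quasi-likelihood test with Benjamini-Hochberg adjustment over all genes of the class). A gene was called when that adjusted p was under 0.05 and the log2 fold change was over 0.5 in size. Of the 7 genes tested in CAR cells 0 were called, against 0.0405% of all 2468 genes tested in the class. An unadjusted p of 0.05 was passed by 1 of the 7, against 140 of the 2468. The gene that passed unadjusted was Lepr. In simulated CAR cell counts the test called 10.9% of genes changed by 1 on the log2 scale and 60.2% of those changed by 2.

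Outside CAR cells, Cxcl12 rose in B cells, from a low level. The level was 1.35 CPM in vehicle 1, 3.27 in vehicle 2, 17.1 in PM 1 and 7.95 in PM 2, on 102 UMIs in all, and both PM mice were above both vehicle mice. Of 7 finer classes tested for Cxcl12, 0 were called. Over B cells as a whole the log2 fold change was 2.16 (SE 0.50, adjusted p = 0.0165, edgeR), which was called. In that class 6.14% of the tested genes were called, 2.92% as higher and 3.22% as lower in PM. The call was lost with DESeq2 (adjusted p = 0.17), without PM 1 (adjusted p = 0.39) and with doublets left out (adjusted p = 0.0855). Dendritic cells and neutrophils also had both PM mice above both vehicle mice, without passing the test. Dendritic cells held 0.795 and 3.20 against 7.64 and 15.7 CPM (log2 fold change 2.34, SE 0.58, adjusted p = 0.075). Neutrophils held 1.40 and 2.20 against 2.86 and 4.97 CPM (log2 fold change 1.04, SE 0.31, adjusted p = 0.091).

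Other stromal transcripts were counted beside Cxcl12 in B cells. A list of 13 stromal marker genes (Adipoq, Ebf3, Foxc1, Pdgfra, Pdgfrb, Igfbp5, Esm1, Grem1, Cdh11, Dcn and the collagen genes Col1a1, Col1a2 and Col3a1) summed to 1.35 and 2.97 CPM in B cells of the vehicle mice and to 7.67 and 3.41 CPM in those of the PM mice. As a yardstick, the list was multiplied by the ratio of Cxcl12 to the list in CAR cells of the same mouse, which gives the Cxcl12 UMIs expected if stromal RNA from other cells were present in that proportion. B cells held 0.976, 0.945, 0.955 and 1.13 times that expectation in vehicle 1, vehicle 2, PM 1 and PM 2, each with a counting interval that included 1. The vehicle 1 value rested on 1 UMI of Cxcl12 and 1 of the list, with an interval of 0.0247 to 5.44. The part of stromal RNA from other cells in the B cell result was not tested.

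The value varied between classes. Over all mice it was 0.974 in monocytes (95% interval 0.798 to 1.18, counting error only), 0.670 in T cells (0.488 to 0.896) and 0.384 in neutrophils, where Col1a1 alone made 425 of the 649 list UMIs. Without the 3 collagen genes and Pdgfrb, a choice made after these values were seen, the list held 9 genes and the value was 1.12 in neutrophils (1.01 to 1.23), 0.794 in T cells (0.579 to 1.06) and 1.34 in monocytes (1.10 to 1.62). The ratio of Cxcl12 to these 9 genes was itself higher in CAR cells of PM mice (2.91 and 2.63) than of vehicle mice (1.12 and 1.34). Both PM mice were below both vehicle mice in CAR cells for 4 of the 13 list genes, Dcn, Grem1, Igfbp5 and Pdgfra, and the mean was lower in PM for 11 of the 13. Igfbp5 was the most abundant of these 4, at 6074 and 8726 CPM in vehicle mice and 1608 and 2783 CPM in PM mice. The share of all genes of the class with both PM mice below both vehicle mice is not given here. Of the 2468 genes tested in CAR cells, edgeR called 0 as lower in PM.

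**Figure D3:**
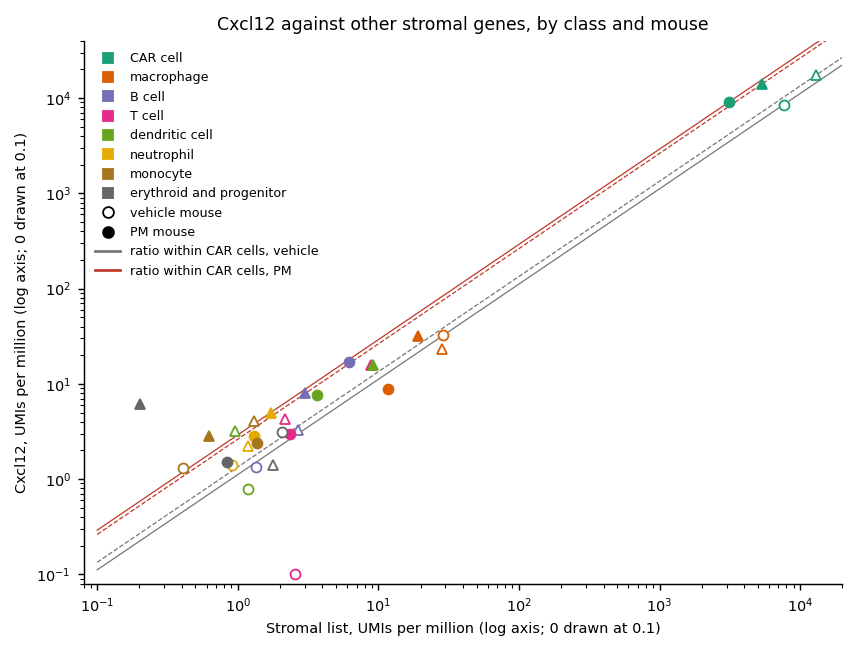
Cxcl12 against the sum of 9 other stromal genes (both CPM, log axes) in 8 cell classes, with 1 point per mouse and lines at the ratio within CAR cells of each mouse. B cell points lie near the line of their mouse, the macrophage point of PM 1 lies below its line, and 1 erythroid point lies far above.

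Kitl, the ligand of the KIT receptor on stem and progenitor cells, was shared between CAR cells and macrophages. CAR cells held 633 and 1361 CPM in vehicle mice and 395 and 797 CPM in PM mice, which was 63.2% to 80.6% of a mouse's Kitl UMIs (589 in all). The groups overlapped, and the log2 fold change of -0.72 (SE 0.54, 95% interval -1.78 to 0.34, adjusted p = 0.94, edgeR) did not pass. Macrophages held 61.6, 75.3, 55.7 and 60.9 CPM, a narrow range over the 4 mice. Their 82 Kitl UMIs were 24.8 times (19.7 to 30.8) the number expected from the 9 stromal genes at the CAR ratio, while their 30 Cxcl12 UMIs were 0.549 times (0.370 to 0.783) the number expected in the same way. Neutrophils, at 0.151 to 0.242 CPM, were within the interval of that expectation (1.36 times, 0.917 to 1.94).

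Il7, the growth factor of early B cells, was near the limit of detection, with 88 UMIs in 39743 cells. CAR cells held 22 of them, at 11.5 and 40.9 CPM in vehicle mice and 32.9 and 50.4 CPM in PM mice, and monocytes held 22 more at no more than 0.935 CPM. No class passed the filter on low counts for Il7, so PM and vehicle were compared only over all cells, where the log2 fold change of 0.49 (SE 0.64, adjusted p = 0.75, edgeR) did not pass. A difference in Il7 was not detectable at this depth.

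Angpt1 came from the megakaryocyte and stem cell classes. Megakaryocytes and platelets held 303 and 308 CPM in vehicle mice and 292 and 335 CPM in PM mice, and the log2 fold change of 0.01 had a 95% interval of -0.31 to 0.32. Stem and progenitor cells (HSPC) held 139, 170, 121 and 150 CPM, and eosinophils, basophils and their progenitors 121, 104, 82.2 and 103 CPM. HSPC and megakaryocytes together with platelets held 40.2% each of the 3878 Angpt1 UMIs on average over mice. CAR cells held 23.0 and 71.6 CPM in vehicle mice and 93.3 and 101 CPM in PM mice, both PM mice higher, yet on 48 UMIs the log2 fold change of 1.02 (SE 0.57, adjusted p = 0.91, edgeR) did not pass. Of 9 classes tested for Angpt1 0 were called by edgeR, and 2, B cells and dendritic cells, passed an unadjusted p of 0.05. At that cut 2166 of 10651 genes passed in B cells and 1638 of 10721 in dendritic cells. Macrophages held 0 UMIs, which allows up to 2.34 CPM at 3 counts over the 4 mice.

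Vcam1, the adhesion molecule bound by the α4β1 integrin, was called in more classes than any other of the 8 genes. Its highest class, the macrophages, held 3459 and 2683 CPM in vehicle mice and 3088 and 3440 CPM in PM mice (log2 fold change 0.15, SE 0.32, adjusted p = 0.95, edgeR). CAR cells held 575 and 1115 against 346 and 554 CPM, lower in both PM mice without passing (log2 fold change -0.88, SE 0.49, adjusted p = 0.91). Macrophage C1q transcripts (C1qa, C1qb and C1qc) in CAR cells summed to 92.0 and 184 against 21.9 and 50.4 CPM, and the granule protease and S100a8 and S100a9 sums, given with Lepr, were higher in both PM mice. Their part in the Vcam1 values of CAR cells was not tested. Between vehicle and PM mice, Vcam1 rose in neutrophils, a class in which 5.34% of all tested genes were called and 4.55% were higher in PM.

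Neutrophils as a whole held 15.3 and 21.9 CPM of Vcam1 in vehicle mice and 41.8 and 38.7 CPM in PM mice, with no overlap. The rise was 1.04 on the log2 scale (SE 0.16, adjusted p = 0.00878, edgeR), and without vehicle 1 the adjusted p was 0.0692. Immature neutrophils, the class of Ltf, Camp and Ngp, rose from 23.3 and 30.5 to 55.1 and 55.9 CPM (log2 fold change 0.95, SE 0.14, adjusted p = 0.00375, in a class with 5.35% of genes called, 4.77% as higher), and the call held in 13 of 13 alternatives. Mature neutrophils rose from 2.29 and 2.94 to 8.42 and 6.30 CPM (log2 fold change 1.53, SE 0.28, adjusted p = 0.0232, with 6.66% of genes called, 4.41% as higher). That call was lost without vehicle 1 (adjusted p = 0.0602), without PM 1 (0.11) and with the replicate number as a block (0.0618).

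The rise was seen across stages. In 8 of 8 neutrophil clusters both PM mice were above both vehicle mice, from 63.9 and 82.6 against 149 and 151 CPM in the immature cluster highest in Vcam1 to 1.74 and 2.20 against 5.27 and 5.37 CPM in a mature one. Clusters divide the cells of the same 4 mice, so they are not separate replicates. The share of all genes that do so is not given here, nor for the Cxcr4 counts by cluster below. Granulocyte progenitors, which make the granule proteases Elane, Mpo, Prtn3 and Ctsg, held 157 and 208 CPM in vehicle mice and 325 and 385 CPM in PM mice. Their log2 fold change of 0.92 (SE 0.16) had an adjusted p of 0.0501 and was not called, in a class with 0.146% of genes called, while 9 of 13 alternatives called it (adjusted p 1.8e-08 to 0.32). The unnamed class led by Gria3 rose from 1.97 and 4.16 to 23.7 and 14.8 CPM (log2 fold change 2.77, SE 0.39, adjusted p = 0.0257, with 0.434% of genes called, 0.398% as higher), and the call held in 12 of 12 alternatives that gave a value. Eosinophils, basophils and their progenitors held 1.33 and 1.56 against 15.9 and 17.3 CPM on 34 UMIs and missed the threshold (log2 fold change 3.38, SE 0.81, adjusted p = 0.0577). B cells held 8.09 and 8.02 against 18.3 and 15.5 CPM (log2 fold change 1.08, SE 0.32, adjusted p = 0.0516).

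**Figure D4:**
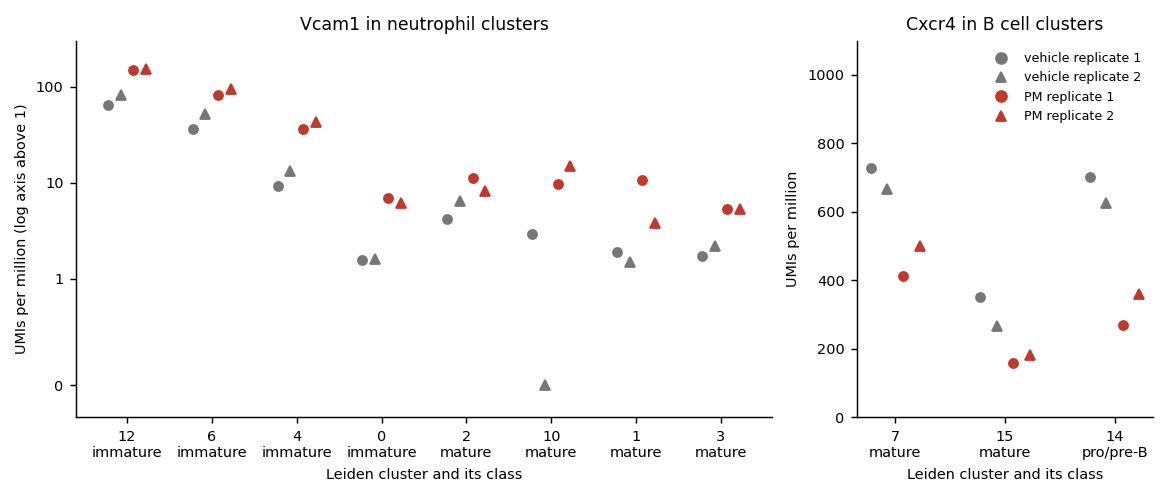
Vcam1 in the 8 neutrophil clusters (left, log axis above 1) and Cxcr4 in the 3 B cell clusters (right, linear axis), in CPM with 1 point per mouse. Both PM mice lie above both vehicle mice in every neutrophil cluster and below them in every B cell cluster.

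Transcripts of other high Vcam1 classes were counted beside it, a check added after the values were seen. C1qa, C1qb and C1qc, which mark macrophages, summed to 1.84 and 2.96 CPM in neutrophils of vehicle mice and to 4.50 and 5.03 CPM in those of PM mice. Immature neutrophils held 20.9 times (20.3 to 21.6) the Vcam1 UMIs expected from C1q at the macrophage ratio, and granulocyte progenitors 154 times. In mature neutrophils the value was 0.790 and 0.841 in vehicle mice and 1.56 and 1.43 in PM mice, with counting intervals that included 1 in both vehicle mice and in neither PM mouse. Their granule protease sum was 75.1 and 65.0 CPM in vehicle mice against 227 and 133 CPM in PM mice. Monocytes (1.14 times) and mature B cells (95% interval 0.982 to 1.45) were also near it, and the Gria3 class was above it (4.32 times, 3.92 to 4.74). The Gria3 class held 11568 and 11587 CPM of the 4 protease genes in vehicle mice and 15388 and 14733 CPM in PM mice, and its Vcam1 was 0.108 times that expected at the granulocyte progenitor ratio. The part of such transcripts in the mature neutrophil and Gria3 results was not tested.

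Over all cells of a mouse, Vcam1 stood at 33.8 and 43.9 CPM in vehicle mice and at 64.4 and 81.5 CPM in PM mice, where more cells of a source class and more RNA per cell cannot be told apart. Granulocyte progenitors were 2.39% and 2.13% of cells in vehicle mice and 3.35% and 3.49% in PM mice. A log2 fold change of 0.79 (SE 0.14) had an adjusted p of 0.20 by edgeR and of 0.00247 by DESeq2. Of the 8 genes, edgeR called 0 over all cells, against 0.0128% of 15581 genes. An unadjusted p under 0.05 was found for 1 of the 8 and for 1993 of the 15581. Of the 18949 Vcam1 UMIs, granulocyte progenitors held 34.5% to 53.3% in a mouse, neutrophils 20.6% to 24.7%, and macrophages 29.1% and 34.0% in vehicle mice against 15.04% and 17.9% in PM mice.

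Cxcr4, the receptor for CXCL12, was found in every class and fell in B cells. B cells held 669 and 571 CPM in vehicle mice and 317 and 373 CPM in PM mice, with no overlap. Its log2 fold change there was -0.85 (SE 0.15, adjusted p = 0.00192, edgeR), and the call held in 13 of 13 alternatives. At least 1 Cxcr4 UMI was found in 59.3% of B cells (median 2360 UMIs), and after thinning to 1000 UMIs in 33.9%, against 8.66% of thinned erythroid cells (46.3% unthinned at a median of 8082 UMIs), the class taken as its background.

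The fall was found at both B cell stages. Pro/pre-B cells, the cells that rearrange their immunoglobulin genes in contact with CAR cells, fell from 701 and 625 to 270 and 362 CPM (log2 fold change -1.02, SE 0.17, adjusted p = 0.000436), and the call held in 13 of 13 alternatives. In that class 9.97% of all tested genes were called, 4.41% as lower. Mature B cells fell from 638 and 487 to 338 and 379 CPM (log2 fold change -0.67, SE 0.15, adjusted p = 0.00622, with 1.58% of genes called, 0.461% as lower). The mature B call was lost with DESeq2 (adjusted p = 0.28), without vehicle 1 (0.15) and without PM 1 (0.26). Both PM mice were below both vehicle mice in 3 of 3 B cell clusters, with 729 and 668 against 414 and 501 CPM in the largest.

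Stage markers of the pro/pre-B cells were counted beside the fall. Vpreb1, Igll1, Rag1 and Dntt, genes of the early B cell program, summed to 1965 and 1761 CPM in vehicle mice and to 2030 and 1755 CPM in PM mice, and the cycling genes Mki67 and Top2a to 1707 and 1753 against 1475 and 2187 CPM, so both sums overlapped between groups. The class held 85 and 481 cells in vehicle mice and 175 and 124 in PM mice, which was 35.0% and 49.0% of B cells against 12.3% and 16.8%, so the make-up of the whole B cell class differed between groups.

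**Figure D5:**
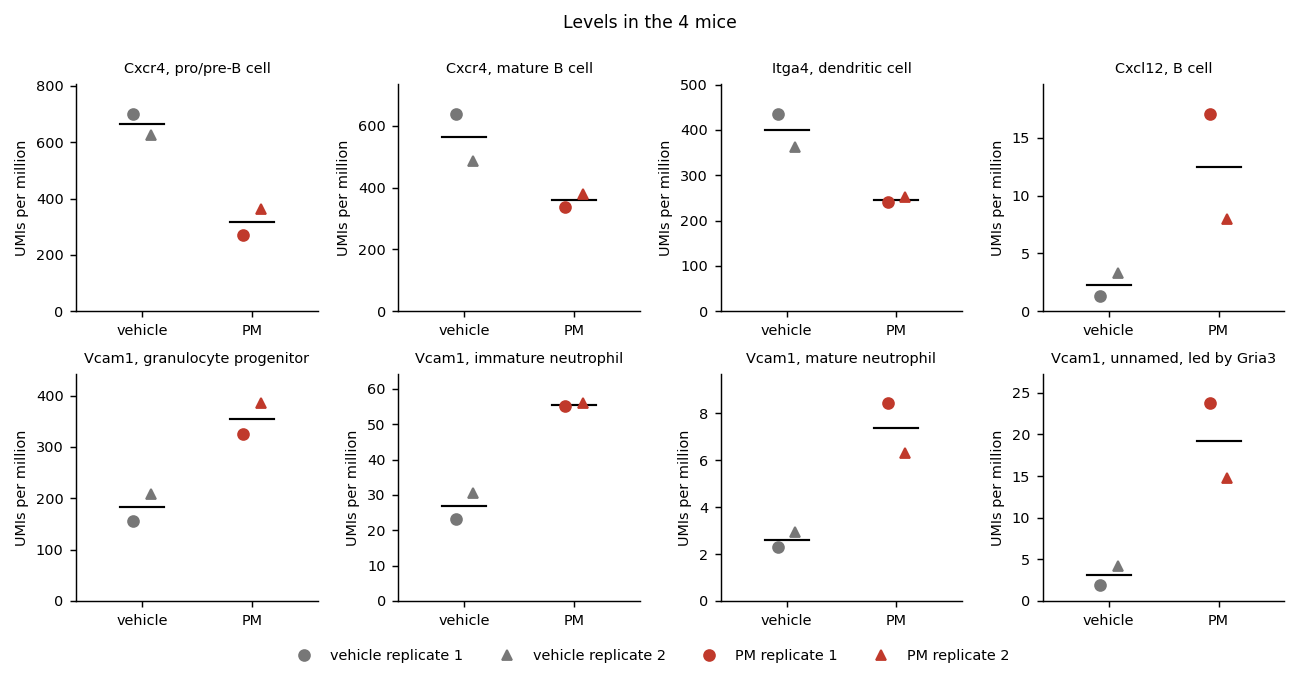
Levels (CPM, linear axes from 0) of 8 pairs of gene and cell class in the 4 mice, with bars at the group means. PM mice lie below vehicle mice for Cxcr4 in B cell stages and Itga4 in dendritic cells, and above them for Cxcl12 in B cells and for Vcam1 in the other 4 classes.

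In other classes Cxcr4 was not called. Neutrophils, which held 41.9% to 51.3% of a mouse's Cxcr4 UMIs, stood at 200 and 243 CPM in vehicle mice and 243 and 293 CPM in PM mice (log2 fold change 0.18, SE 0.15, 95% interval -0.11 to 0.47, adjusted p = 0.49, edgeR). Both PM mice were above both vehicle mice in 5 of the 8 neutrophil clusters and below them in 0. Monocytes stood at 261 and 282 against 285 and 324 CPM (log2 fold change 0.13, 95% interval -0.11 to 0.37), and the Gria3 class at 300.2 and 260 against 264 and 287 CPM. Eosinophils, basophils and their progenitors had the second highest mean over mice, at 365 to 559 CPM. Their range overlapped that of B cells, and they were above B cells in both PM mice. The lowest levels were in erythroid cells, 58.4 to 90.6 CPM, and plasma cells, 44.3 to 81.1 CPM, whose ranges overlapped. Plasma cells of the clone led by Igkv10-96 held 57.4 and 57.5 CPM in vehicle mice and 71.3 and 35.0 CPM in PM mice. Of 15 classes tested for Cxcr4, 1 was called and 3, the B cells, granulocyte progenitors and megakaryocytes, passed an unadjusted p of 0.05. Of all genes, 2166 of 10651, 1476 of 10973 and 470 of 9621 passed that cut in these classes.

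The difference in the Cxcr4 response between classes was tested as an interaction, with the mouse as a block. The log2 fold change was lower in B cells than in neutrophils by a difference of -1.05 (adjusted p = 5.0e-06, edgeR), with 4.35% of genes called in that test. B cells against monocytes gave -0.96 (adjusted p = 9.6e-06, with 4.18% called) and HSPC against B cells 0.84 (adjusted p = 0.00321, with 2.43% called). Against T cells, which held 235 and 236 CPM in vehicle mice and 173 and 206 CPM in PM mice, the difference of 0.55 did not pass (adjusted p = 0.12). Over 10 pairs of classes and 50 such tests, 4 were called, and the fourth was Cxcl12 in B cells against monocytes. Of all genes, 2.07% were called in neutrophils against monocytes, 1.39% in neutrophils against T cells, 2.31% in neutrophils against HSPC, 1.48% in monocytes against T cells, 0.387% in monocytes against HSPC, 1.03% in B cells against T cells and 0.206% in T cells against HSPC.

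Itga4, the α4 chain that pairs with β1 or β7 and binds VCAM1 and fibronectin, was highest in lymphoid cells. NK cells held 494 to 753 CPM and T cells 408 to 500 CPM, with ranges that overlapped. At least 1 Itga4 UMI was found in 79.4% of NK cells (median 3553 UMIs, 50.4% thinned), against 14.1% of mature neutrophils (median 3357 UMIs, 6.12% thinned). Neutrophils had the lowest mean over mice among tested classes, at 39.3 to 48.0 CPM, and the ranges of macrophages (20.8 to 73.9 CPM) and CAR cells (22.9 to 143 CPM) overlapped theirs.

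Of 15 classes tested for Itga4, only the dendritic class was called, as lower in PM. Its conventional part was also led by Cx3cr1 and Adgre4, and whether it held monocyte-like cells was not tested. The dendritic class held 435 and 362 CPM in vehicle mice and 240 and 251 CPM in PM mice, with no overlap (log2 fold change -0.73, SE 0.14, adjusted p = 0.0346, edgeR). In that class 1.78% of the tested genes were called, 0.867% as lower. The call was lost without vehicle 1 (log2 fold change -0.60, adjusted p = 0.22), with doublets left out (adjusted p = 0.0928) and with all variable genes clustered (log2 fold change -0.36, adjusted p = 0.54). Conventional dendritic cells held 492 and 442 against 264 and 300 CPM and just missed the threshold (log2 fold change -0.76, adjusted p = 0.0556), and plasmacytoid dendritic cells held 305 and 210 against 214 and 201 CPM, with overlap. The conventional class held 214 and 212 cells in vehicle mice and 194 and 111 in PM mice, and the plasmacytoid class 109 and 142 against 204 and 131. Granule protease transcripts in dendritic cells summed to 172 and 148 CPM in vehicle mice and to 1180 and 771 CPM in PM mice, and their part in the result was not tested.

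Monocytes held 309 and 292 against 231 and 237 CPM of Itga4, lower in both PM mice without passing (log2 fold change -0.39, SE 0.12, adjusted p = 0.17). Plasma cells ran the other way, with 258 and 282 CPM in vehicle mice and 473 and 460 CPM in PM mice (log2 fold change 0.56, SE 0.20, adjusted p = 0.61). Among them the Igkv10-96 clone held 416 and 405 against 605 and 670 CPM (log2 fold change 0.60, SE 0.20, adjusted p = 0.26), and the other plasma cells 155 and 142 against 157 and 223 CPM. The clone counted 21, 27, 92 and 31 cells in vehicle 1, vehicle 2, PM 1 and PM 2, and leaving out doublets raised its log2 fold change to 1.03 (adjusted p = 0.0321). Immature neutrophils had a small rise from 31.7 and 30.1 to 44.7 and 44.2 CPM (log2 fold change 0.43, adjusted p = 0.0367, edgeR), under the fold threshold. Mature neutrophils ran the other way, with 51.7 and 87.4 against 51.2 and 31.4 CPM, and were not called. Neutrophils as a whole held 39.3 and 48.0 against 46.5 and 39.8 CPM, with overlap.

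Lepr, the leptin receptor, was found mostly in CAR cells, with 288 of its 350 UMIs there. CAR cells held 483 and 1125 CPM in vehicle mice and 269 and 398 CPM in PM mice, and both PM mice were below both vehicle mice. A log2 fold change of -1.24 (SE 0.51) had an adjusted p of 0.82 by edgeR over the 2468 genes of the class and was not called. In the same cells the 4 granule protease genes summed to 34.5 and 71.6 CPM in vehicle mice and 604 and 211 CPM in PM mice, and S100a8 and S100a9 to 152080 and 117589 against 162620 and 171657 CPM. Their part in the lower Lepr values was not tested. At least 1 Lepr UMI was found in 40.3% of CAR cells, against 0.186% of T cells and 0.104% of neutrophils. Neutrophils held 28 UMIs, 1.91 times (1.27 to 2.76) the number expected at the CAR ratio.

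Over the 8 genes and 15 classes, 62 pairs had counts enough to be tested, and 19 had an unadjusted p under 0.05 by edgeR. At that cut 2728 of all 12196 genes passed in neutrophils, 2166 of 10651 in B cells and 1638 of 10721 in dendritic cells. The smallest share was in NK cells, 216 of 5307. Of the 62 pairs, 5 in 4 classes were called, 3 higher in PM and 2 lower. In the 11 classes with no such call, edgeR called 0% of all tested genes in NK cells and in megakaryocytes and platelets, 0.0377% in HSPC, 0.0405% in CAR cells, 0.0631% in plasma cells, 0.146% in granulocyte progenitors, 0.148% in eosinophils, basophils and their progenitors, 0.157% in T cells, 0.21% in erythroid cells, 0.269% in macrophages and 1.18% in monocytes. By the 19 finer classes 5 of 71 pairs were called, Vcam1 in immature and mature neutrophils and the Gria3 class and Cxcr4 in both B cell stages. The finer classes with no call had 0.651% (conventional dendritic cells), 0.383% (plasmacytoid dendritic cells), 0.643% (the Igkv10-96 clone) and 0.11% (other plasma cells) of their genes called.

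Partners of these genes were described from lists of 45 genes in 5 groups. In B cells 2 of 33 tested genes rose and 1 fell, where 6.14% of all genes of the class were called. The faller was Il7r, the receptor chain for interleukin 7, from 290 and 332 to 133 and 147 CPM (log2 fold change -1.17, SE 0.15, adjusted p = 0.000133, edgeR). It was called in neither B cell stage, with 583 and 537 against 401 and 382 CPM in pro/pre-B cells (log2 fold change -0.46, adjusted p = 0.070) and 7.94 to 16.6 CPM in mature B cells (log2 fold change -0.12, adjusted p = 0.96), and pro/pre-B cells were a smaller share of B cells in both PM mice. Mif, another ligand of CXCR4, rose from 165 and 218 to 348 and 376 CPM (log2 fold change 0.89, adjusted p = 0.00202), with a call in pro/pre-B cells (1.76, adjusted p = 2.0e-05) and none in mature B cells, and Itgb7, a partner chain of α4, rose by 0.80 on the log2 scale (adjusted p = 0.0358), without a call in mature B cells (0.16, adjusted p = 0.83). The median log2 fold change of the 33 genes was 0.09, against 0.01 over all genes of the class.

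In neutrophils 6 of 34 tested partner genes rose and 1 fell, where 5.34% of all genes were called. The risers held 3 adhesion and trafficking genes, Itga6 (log2 fold change 0.92), Itga5 (0.96) and S1pr1 (1.99), the sphingosine 1-phosphate receptor that guides exit from marrow. Levels were low for S1pr1, at most 5.30 CPM in any mouse, and for Itga5, at most 5.44 CPM. Itgb7 rose from 2.57 and 5.49 to 18.7 and 19.9 CPM (log2 fold change 2.21, adjusted p = 0.036), Kit by 0.63 and Tnfrsf13b by 0.97 on the log2 scale. Csf1, the macrophage growth factor, was the faller, at -0.57 on the log2 scale (adjusted p = 0.0455). Neither Csf1 nor Kit was called in immature or mature neutrophils taken apart. The B cell transcripts Ighd and Ms4a1 summed to 0.367 and 1.18 CPM in neutrophils of vehicle mice and to 4.38 and 2.16 CPM in those of PM mice. The part of transcripts from other cells in the rises of partner genes in neutrophils was not tested.

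In dendritic cells, where 1.78% of all genes were called, 3 of 31 partner genes rose and 1 fell, the faller being Csf1r, the receptor for CSF1, from 333 and 284 to 153 and 154 CPM (log2 fold change -1.04, adjusted p = 0.00945). Conventional dendritic cells, the class also led by Cx3cr1 and Adgre4, held 475 and 427 against 280 and 295 CPM of Csf1r without a call (log2 fold change -0.68, adjusted p = 0.0742). Plasmacytoid ones held 6.55 to 15.3 CPM. Conventional cells were 66.3% and 59.9% of dendritic cells in vehicle mice against 48.7% and 45.9% in PM mice. Of the risers, Elane and Ctsg encode granule proteases that cleave CXCL12 and VCAM1 and are made by granulocyte progenitors. Elane rose from 10.3 and 7.69 to 280 and 202 CPM in dendritic cells (log2 fold change 4.73) and from 11.4 and 4.30 to 110 and 98.2 CPM in T cells (log2 fold change 3.79). Granulocyte progenitors themselves held 7207 to 10077 CPM of Elane. Fn1, the other ligand of the α4 integrin, rose in the Gria3 class from 116 and 90.5 to 273 and 236 CPM (log2 fold change 1.28, adjusted p = 0.00514) and in erythroid cells from 2.59 and 3.19 to 39.1 and 31.2 CPM (log2 fold change 3.48, adjusted p = 0.00565), while monocytes, the class highest in Fn1, held 2451 to 2909 CPM. In CAR cells 0 of 13 tested partner genes were called.

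Across 14 classes, the genes whose levels (log2 of mean CPM plus 1) ran most like each of the 8 by Pearson's r were found among 10225 genes, as a description with no test, over classes that share libraries. Igfbp5 (r = 0.994), Mgp and Epas1 ran most like Cxcl12, and Prrx1 (0.999), Afap1l2 and Kng2 most like Lepr. Rgs2 (0.898), Nfkbid and Grk2, which encodes a kinase of G protein coupled receptors, ran most like Cxcr4. Il18bp and the iron exporter gene Slc40a1 were among the genes most like Vcam1. Ptchd1 (0.983) led for Kitl, Hdhd5 (0.914) for Itga4, Fkbp10 (0.978) for Il7 and Mc5r (0.921) for Angpt1. Among the 8 genes themselves, Cxcl12 ran most like Lepr (0.953) and Kitl (0.937).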

How the data were processed

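Bone marrow cells of 2 vehicle and 2 PM mice were profiled on the 10x Genomics 3' platform, with 1 library per mouse, and groups were taken from the sample titles. The authors deposited raw UMI counts per gene and barcode, made with Cell Ranger 6.0.1 per the file headers, without normalization. The study's methods name GRCm38 and the submitters' processing notes name GRCm39 and STAR, and gene coordinates are given on GRCm38. The counts of kept cells summed to 69190194 to 108776232 per mouse, and counting intervals (exact Poisson or Clopper-Pearson, 95%) and the limit of 3 counts cover counting error only.

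Barcodes under 300 genes or over 20% mitochondrial counts were left out. The 2500 most variable genes, less 22 that were members or partner genes, were reduced to 30 principal components and clustered by the Leiden algorithm (scanpy 1.11.5, 15 neighbors, resolution 1, seed 1), which gave 31 clusters. Clusters were named from marker lists. Doublet scores were ranked and called at 0.8% per 1000 cells, because the automatic threshold called under 0.5% in 2 libraries, and called cells were kept except in 1 alternative.

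Counts were summed per mouse and class and tested over all genes by a robust quasi-likelihood fit in edgeR 4.0.16 (R 4.3.3), after filterByExpr and TMM scaling, with Benjamini-Hochberg adjustment. The study used DESeq2 on such sums, and DESeq2 1.42.0 was an alternative. A call needed an adjusted p under 0.05 and an absolute log2 fold change over 0.5. The SE was the log2 fold change divided by the square root of F. The test was also run on simulated counts. For changes of 1 on the log2 scale, 10.9% were called in CAR cells. The share was 72.3% to 78.7% in neutrophils, granulocyte progenitors and B cells. For changes of 2 these shares were 60.2% and 93.7% to 96.3%. Unchanged genes made 20 of 194 calls in neutrophils and 14 of 189 in granulocyte progenitors. They made 10 of 177 in B cells and 4 of 79 in CAR cells. Differences between classes were tested as interactions with the mouse as a block. Named genes were the 8 members in every class, the called partner genes, and the 3 most alike genes of each member, of which 1 is not reported here. The 8 genes and all lists were chosen with earlier results of these data known. With 2 mice a group, p-values weigh the group difference against the spread within groups of these 4 libraries, estimated with information shared across genes.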

Additional observations from a re-analysis of the deposited data

Results flagged for a closer look

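Of 50 tests of whether the PM effect on 1 of the 8 genes differed between a pair of classes, 4 were called by edgeR's quasi-likelihood test with Benjamini-Hochberg adjustment and 18 had an unadjusted p under 0.05. The share of all genes at that unadjusted cut is not given here for these tests. For Cxcr4, the log2 fold change in B cells less that in neutrophils was -1.05 (adjusted p = 5.0e-06), with both PM mice lower than both vehicle mice in B cells and not in neutrophils. For Cxcr4 in B cells less monocytes it was -0.96 (adjusted p = 9.6e-06), and for Cxcr4 in HSPC less B cells it was 0.84 (adjusted p = 0.00321). For Cxcl12 in B cells less monocytes it was 2.69 (adjusted p = 0.00561), where the B cell value rested on 102 UMIs. That B cell value lost its own call with DESeq2, without PM 1 and with doublets left out. In B cells of each mouse the counting interval of observed over expected Cxcl12 included 1. The part of stromal RNA from other cells was not tested. These tests were run in 1 setting.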

How the results depend on the processing

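By cell class, 5 pairs of gene and class were called. The count was 10 with no filter on low counts, 3 with doublets left out, and 4 to 9 with 1 mouse left out, being 9 without vehicle 2. By finer class 5 pairs were called, against 8 with no TMM factors, 13 with no filter, 8 with all variable genes clustered, and 4 to 12 with 1 mouse left out, being 12 without vehicle 2 and 9 without PM 2. Over all cells 0 genes were called, 1 (Vcam1) with DESeq2 and 1 (Vcam1) with no filter, and 0 to 0 with 1 mouse left out. Where a mouse was left out, the lone mouse of its group was assumed to vary like the other group.

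With the replicate number as a block, 9 pairs were called by class, 6 by finer class and 0 over all cells. Deviations of same-numbered mice correlated at -0.18 to 0.26 over the classes and -0.00042 over all cells. No label says that the numbers mark a shared batch or day. Whether the numbers pair the mice is not known, and the main fit did not pair them. With the pairing crossed, an alternative chosen after seeing the data, 6 pairs were called by class, 9 by finer class and 0 over all cells.

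Observed over expected Cxcl12 in neutrophils was 0.384 with the full stromal list, 1.08 without the collagen genes and 1.12 without these and Pdgfrb, as Col1a1 made 425 of the 649 UMIs. Over 23 named results and 293 alternatives, 251 kept their side of the threshold, 29 gained a call and 13 lost one, and none reversed. For the other results that moved the cause was not tested. Depth limits Il7 (88 UMIs), Lepr (350) and all genes in the 159 CAR cells.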

Other observations

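Endothelial cells, 9 to 21 a mouse and 57 in all, were too few to test. They held 955 and 1205 CPM of Vcam1 in vehicle mice and 269 and 558 CPM in PM mice on 92 UMIs, with no Angpt1 UMI. Their 29 Cxcl12 UMIs fell almost wholly in vehicle 1, at 992 CPM, against 0 CPM in vehicle 2 and PM 1 and 43.0 CPM in PM 2.

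Erythroid cells of PM 2 held 30 Cxcl12 UMIs where 2.62 were expected from the 9 stromal genes at the ratio of that mouse's CAR cells, 11.4 times as many (95% interval 7.71 to 16.3, counting error only), while in the other 3 mice the value was 0.581 to 1.35.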
